A study of Mus musculus with 8 samples.

Results

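The proteasome genes described here are the 47 gene symbols that begin with Psma, Psmb, Psmc, Psmd, Psme, Psmf or Psmg followed by a digit, without the immunoproteasome subunits Psmb8, Psmb9 and Psmb10, out of 35963 symbols in the table. They were taken by name alone, whatever their values. By role they comprise 16 genes of the 20S core (8 of the alpha ring and 8 of the beta ring), 17 of the 19S regulatory particle (9 of its base and 8 of its lid), 6 genes of other activators and the inhibitor PI31, 7 of assembly chaperones, and Psmc3ip. Psmc3ip carries the name of a proteasome subunit that its protein binds, but acts in homologous recombination and is no subunit. The 19S subunits encoded by Adrm1 and Shfm1 (now Sem1) have other symbols and are given separately.

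Epithelial cells were freed with CEC buffer from proximal colons of mice aged 4 weeks, and their RNA was sequenced. The 4 libraries labelled Ccna2-KO came from Ccna2 fl/fl vil-Cre mice, in which the villin promoter drives Cre recombinase in intestinal epithelium. The 4 control libraries, labelled WT and wild type, came, by the design text, from Ccna2 fl/fl mice, which carry the same floxed alleles without Cre. The comparison asks how transcripts of the colonic epithelium differ when the gene of cyclin A2 is targeted there. Each library held 27162083 to 34386731 estimated counts. Whether each library is a mouse of its own is not said in the labels, and the p-values speak only of library-to-library spread, which may be technical. In such bulk samples, fewer cells of a type and less RNA per cell cannot be told apart.

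Ccna2 itself had 18.2, 26.6, 26.6 and 16.2 CPM in the libraries labelled Ccna2-KO, against 54.3, 25.9, 11.9 and 18.3 CPM in the controls (CPM, counts scaled to a common library size after TMM correction). The groups overlapped, so this count does not bear the label out (a count over the whole gene need not show a deletion of part of it), and every direction below rests on the labels. Defining epithelial markers were abundant in all libraries, with a summed level over 10 genes of 40107 to 44397 CPM in libraries labelled Ccna2-KO and 36567 to 39150.0 CPM in the controls. The 10 lymphocyte markers all fell by edgeR's test, where 5.71% of all genes were called lower. With the number set described below as a term, 7 of them fell (8.90% of all genes). They summed to 8.93 to 20.2 CPM in libraries labelled Ccna2-KO and to 34.4 to 169 CPM in the controls. For 9 markers of other leukocytes the sums were 20.2 to 32.3 CPM in libraries labelled Ccna2-KO and 88.4 to 917 CPM in the controls, most of it Cd74 (4.71 to 12.03 CPM in libraries labelled Ccna2-KO and 61.2 to 867 CPM in the controls). Of the 7 of these markers that were tested, Cd74 and Ptprc fell (5.71% of all genes) and Cd68 rose (6.39%). The median log2 fold change of the 7 was -0.07. For 10 markers of stroma the sums were 11.7 to 32.4 CPM in libraries labelled Ccna2-KO and 8.81 to 17.3 CPM in the controls. Of the 6 that were tested, 5 had log2 fold changes above 0. By edgeR's test Des rose (2.01, adjusted p = 0.00795) and Pecam1 fell (-0.94, adjusted p = 0.0315), both at low levels. Control replicate 1 stood apart from the other controls over many genes, and 15 genes of cell division summed to 794 to 1197 CPM where the label is Ccna2-KO, 813 CPM in control replicate 1 and 355 to 382 CPM in control replicates 2 to 4. Of these 15 genes 4 rose (Mki67, Top2a, Bub1 and Rrm2) and 0 fell, where 6.39% of all genes were called higher. Without control replicate 1 all 15 were called higher (15.1% of all genes), and with the number set as a term 7 were (9.29%). The library numbers in the labels also form a low set (595 to 598), with Ccna2-KO replicate 4 and 3 controls, and a high set (621 to 641), with Ccna2-KO replicates 1 to 3 and control replicate 1. Genotype and number set are thus partly confounded, and the labels do not explain the numbers.

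The proteasome is the protease that degrades proteins tagged with ubiquitin, among them the mitotic cyclins. Its barrel-shaped core is built of outer rings of alpha subunits, which gate the entry, and inner rings of beta subunits, of which those encoded by Psmb5, Psmb6 and Psmb7 cut the substrate. The 19S particle caps the barrel. Its lid and receptors bind the substrate and remove ubiquitin, and its ring of ATPases unfolds the protein and threads it into the core. Other caps open the core without ATP, and dedicated chaperones put the particles together. In lymphoid and interferon-exposed cells, Psmb8, Psmb9 and Psmb10 replace the constitutive catalytic subunits.

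A single proteasome gene passed the threshold. Of the 47 genes, 46 passed the filter on low counts, and 1 of these, Psmd2, rose in the libraries labelled Ccna2-KO at an adjusted p under 0.05 (edgeR's quasi-likelihood test, adjusted over 15893 genes), while 0 fell. Over all genes tested, 6.39% were called higher and 5.71% lower. At an unadjusted p under 0.05, 9 proteasome genes were higher and 1 lower, where 12.7% and 13.5% of all genes were. DESeq2 called 5 higher and 0 lower. It was run without that filter on low counts, on 27164 genes, and called 5.50% of those higher and 5.19% lower. DESeq2 sets aside low-count genes by a filter of its own, and such genes stay among the 27164 as not called. These shares thus have another, wider base than the others here and are lowered by it. A fit with the replicate number as a block called 0 higher (3.89% of all genes tested) and 0 lower (2.30%). The median log2 fold change was 0.12 over the 46 genes and -0.01 over all genes tested, and 38 of the 46 values lay above 0. The values of the groups did not overlap for 5 genes, all higher in the libraries labelled Ccna2-KO (Psmd1, Psmd2, Psmd5, Psme2b and Psme4), where 9.41% of all genes had such a separation in that direction. For 0 genes did the groups separate in the other direction (9.60% of all genes).

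**Figure D1:**
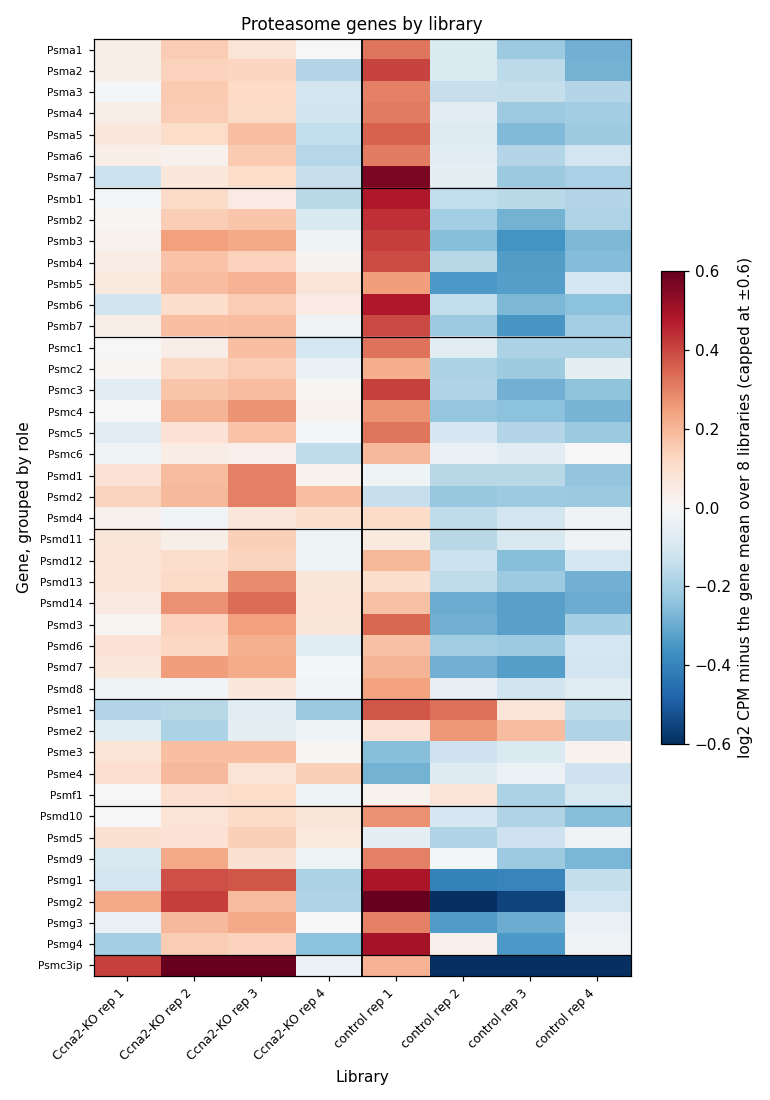
Heat map of the 44 proteasome genes with a mean of at least 1 CPM (rows, grouped by role and divided by lines) in the 8 libraries (columns, libraries labelled Ccna2-KO left of the line, controls right). Colour gives log2 CPM minus the gene's mean over the libraries, capped at ±0.6. Control replicate 1 is red over most core and 19S genes, and control replicates 2 to 4 are blue over most of them, while Psme1 and Psme2 are red in several controls and Psme4 is blue in control replicate 1.

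Control replicate 1 moved these counts. It held the highest CPM of the 8 libraries in 30 of the 46 genes (65.2%), against 26.9% of all genes tested. All 4 libraries labelled Ccna2-KO lay above control replicates 2, 3 and 4 in 28 genes (60.9%), against 3021 of the 15893 genes tested (19%). Without control replicate 1, edgeR called 20 proteasome genes higher, where 15.1% of all genes were, and 0 lower (13.4%), and the median log2 fold change was 0.24. The 3 controls that then remained all came from the low number set. With the number set as a term in the fit, 3 were higher (9.29% of all genes) and 1 lower (8.90%), and the median was -0.01. The part of the number set, of cell division genes and of white blood cell markers in these values was not tested.

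The sequence around an annotated transcript start was available for 39 of the 47 genes (RefSeq promoters of GRCm38.p6, 250 bases before to 50 after the transcript start, 42 windows). The core of the antioxidant response element, TGACNNNGC on either strand, to which the proteasome gene activators NFE2L1 and NFE2L2 can bind, was in 6 of the 42 windows (14.3%), against 12.4% of 32851 windows of all genes. The CCAAT box, CCAAT on either strand, was in 14 (33.3%, against 37.4%), and TTCNNNGAA, the pattern of the interferon-gamma activated site, in 2 (4.76%, against 8.30%). A match is only these letters in this window. The promoters below are those of Psmd2, the gene called in the comparison, of Psme4, an activator whose values separated the groups, and of the catalytic subunit gene Psmb5, all 5′ to 3′ on the strand of the gene. The window of Psmd2 lies inside the gene, whose annotated span begins at 20651122, and so belongs to a later transcript start. Capitals mark TTCNNNGAA in Psmd2 and TGACNNNGC, on either strand, in Psme4 and Psmb5.
Psmd2, chr16:20651402-20651701, plus strand: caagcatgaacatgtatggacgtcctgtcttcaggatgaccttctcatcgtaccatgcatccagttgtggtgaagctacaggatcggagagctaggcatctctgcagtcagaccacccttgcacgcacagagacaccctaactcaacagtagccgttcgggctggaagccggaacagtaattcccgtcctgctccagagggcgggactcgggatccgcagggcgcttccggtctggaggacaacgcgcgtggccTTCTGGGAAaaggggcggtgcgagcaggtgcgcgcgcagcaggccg
Psme4, chr11:30771525-30771824, plus strand: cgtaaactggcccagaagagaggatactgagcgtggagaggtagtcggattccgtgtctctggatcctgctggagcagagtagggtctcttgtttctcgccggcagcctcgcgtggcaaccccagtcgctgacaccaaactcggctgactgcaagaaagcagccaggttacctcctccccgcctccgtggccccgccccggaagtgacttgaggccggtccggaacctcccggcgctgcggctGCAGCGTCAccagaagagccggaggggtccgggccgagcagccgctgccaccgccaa
Psmb5, chr14:54617946-54618245, minus strand: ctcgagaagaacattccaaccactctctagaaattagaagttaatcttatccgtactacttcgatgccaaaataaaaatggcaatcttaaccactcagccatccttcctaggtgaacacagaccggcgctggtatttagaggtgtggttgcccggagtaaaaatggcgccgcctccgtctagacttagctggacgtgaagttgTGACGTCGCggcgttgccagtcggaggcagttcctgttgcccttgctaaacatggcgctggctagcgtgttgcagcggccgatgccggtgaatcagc

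Of 7 tested alpha ring genes of the 20S core 0 were called, where 6.39% of all genes were higher and 5.71% lower. Their log2 fold changes ran from -0.08 (Psma7) to 0.12 (Psma1), with a median of 0.07. Psma3 had 105, 118, 115 and 98.2 CPM in the libraries labelled Ccna2-KO, against 130.5, 96.0, 95.8 and 93.7 CPM in the controls. Control replicate 1 was the highest of all libraries for Psma3, as it was for each of the 7 tested genes. Psma7 had 70.7, 80.6, 83.2 and 70.0 CPM, against 114, 74.3, 66.2 and 67.5 CPM in the controls. Without control replicate 1, Psma1 was called (0.26 ± 0.08 SE, adjusted p = 0.0337), where 15.1% of all genes were called higher. All 7 fold changes were above 0 in that fit, while with the number set term all 7 were below 0. Psma8, the alpha subunit of the spermatoproteasome of the testis, had 0 counts in every library, which allows up to 0.0908 to 0.116 CPM in each (3 counts, counting error only).

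In the beta ring, control replicate 1 was again the highest library for all genes but Psmb11. Of 8 tested genes 0 were called (6.39% of all genes were higher and 5.71% lower), and the median log2 fold change was 0.12. Psmb5, which encodes the subunit with chymotrypsin-like activity, had 61.9, 67.4, 68.7 and 62.6 CPM in the libraries labelled Ccna2-KO, against 70.6, 46.7, 47.2 and 55.2 CPM in the controls. All libraries labelled Ccna2-KO were above 3 of the controls and below control replicate 1. Its log2 fold change was 0.25 ± 0.14 (SE; adjusted p = 0.297), with a 95% interval of -0.06 to 0.56. Psmb6, of the caspase-like subunit, had 60.3, 70.6, 73.0 and 67.8 CPM, against 91.5, 59.3, 54.4 and 55.3 CPM in the controls (log2 fold change 0.06, 95% interval -0.32 to 0.44). Psmb7, of the trypsin-like subunit, had 89.6, 98.7, 99.0 and 85.8 CPM, against 115, 74.9, 68.3 and 75.6 CPM in the controls (0.16, 95% interval -0.20 to 0.52). All these intervals include 0, and they leave changes in either direction possible. Without control replicate 1, 6 beta ring genes were called higher, Psmb2, Psmb3, Psmb4, Psmb5, Psmb6 and Psmb7, by 0.27 to 0.41 on the log2 scale. In that fit 15.1% of all genes were called higher. With the number set term 0 were called, where 9.29% of all genes were higher and 8.90% lower. Psmb11, the thymus-specific catalytic subunit, stayed at 0.180 to 0.392 CPM in libraries labelled Ccna2-KO and 0.244 to 0.606 CPM in the controls, a level of 6 to 20 counts.

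The immunoproteasome subunits, which replace these catalytic subunits, had negative log2 fold changes. Psmb8 had 27.2, 20.4, 22.8 and 26.9 CPM in the libraries labelled Ccna2-KO, against 41.6, 109, 58.1 and 31.3 CPM in the controls, and it fell by 1.30 on the log2 scale (SE 0.34, adjusted p = 0.037). Psmb10 fell by 0.67 (SE 0.18, adjusted p = 0.0391), and the value for Psmb9 was -0.95 ± 0.36 (SE; adjusted p = 0.127). Over all genes tested, 5.71% were called lower. The call of Psmb8 ended with the number set term (-1.06, adjusted p = 0.123), and those of both genes ended with the replicate block (adjusted p = 0.109 for Psmb8 and 0.122 for Psmb10). Leaving out any 1 library labelled Ccna2-KO, or control replicate 3, left 0 of the 3 immunoproteasome genes called. Fewer genes were called in all in those fits: 1114, 1031, 972 and 1719 without Ccna2-KO replicates 1 to 4. Without control replicate 3 they were 1221, against 1923 with 8 libraries. The median log2 fold change of the 3 genes was -0.88 to -1.02 in those fits, and -0.52 without control replicate 2. The summed level of the immunoproteasome genes over that of Psmb5, Psmb6 and Psmb7 was 0.617, 0.472, 0.525 and 0.646 in the libraries labelled Ccna2-KO, against 0.793, 1.88, 1.24 and 0.761 in the controls, so the groups did not overlap. The lymphocyte markers given above, and Cd74 and Ptprc of the other leukocyte markers, were lower in the same libraries. The other leukocyte markers did not all follow: the median of the 7 tested was -0.07, and Cd68 rose. The part of all these markers in this ratio was not tested.

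In the base of the 19S particle, the ring of 6 ATPases held 0 called genes, where 6.39% of all genes were higher and 5.71% lower. Their log2 fold changes ran from -0.05 (Psmc6) to 0.23 (Psmc4). Psmc3 had 91.3, 107, 109 and 95.9 CPM in the libraries labelled Ccna2-KO, against 127, 84.3, 78.1 and 80.7 CPM in the controls (0.12 ± 0.16 SE, adjusted p = 0.692). Without control replicate 1, edgeR called 2 ATPase genes higher (15.1% of all genes), Psmc3 (0.32, adjusted p = 0.0225) and Psmc4 (0.38, adjusted p = 0.01). With the number set term it called 0 (9.29%). The gene of the base called in the fit of 8 libraries encodes a large scaffold subunit. Psmd2, which encodes Rpn1, the scaffold on which ubiquitin receptors, shuttle factors and the deubiquitinase USP14 dock, had 228, 238, 256 and 235 CPM in the libraries labelled Ccna2-KO, against 189, 177, 179 and 178 CPM in the controls. Every library labelled Ccna2-KO exceeded every control. It rose 1.32-fold (log2 fold change 0.40 ± 0.09 SE, 95% interval 0.20 to 0.60, adjusted p = 0.0189).

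The value of Psmd2 moved little with control replicate 1. Its log2 fold change was 0.43 without that library (adjusted p = 0.00395) and 0.38 with the number set term (adjusted p = 0.0156), and its direction was the same in both sets. The call ended without Ccna2-KO replicate 2 (adjusted p = 0.0571) or 3 (0.0701) and without control replicate 2 (0.0572), 3 (0.0567) or 4 (0.0572), while the fold change stayed between 0.37 and 0.44 with single libraries left out. Psmd1, of the other large scaffold Rpn2, had 118, 126, 137 and 112 CPM in the libraries labelled Ccna2-KO, against 109, 98.7, 98.9 and 94.0 CPM in the controls. The groups did not overlap, with a log2 fold change of 0.30 ± 0.10 (SE; adjusted p = 0.0792; DESeq2 adjusted p = 0.0397). In edgeR, Psmd1 was called without control replicate 1 (0.35, adjusted p = 0.0161). It was not called with the number set term (0.22, adjusted p = 0.109) or the replicate block (0.30, adjusted p = 0.211). Psmd4, of the ubiquitin receptor Rpn10, had 109.7, 106, 113 and 116 CPM, against 117, 96.9, 99.7 and 106 CPM in the controls (0.09 ± 0.09 SE, adjusted p = 0.619).

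The lid held 0 called genes of 8 (6.39% of all genes were higher and 5.71% lower), with a median log2 fold change of 0.19. Psmd14, of the deubiquitinase Rpn11 that cuts the ubiquitin chain from the substrate, had 61.4, 71.5, 74.5 and 62.6 CPM in the libraries labelled Ccna2-KO, against 66.8, 48.1, 47.2 and 48.1 CPM in the controls. Control replicate 1 lay among the libraries labelled Ccna2-KO and apart from the other controls, which were close to each other. The log2 fold change of Psmd14 was 0.36 ± 0.13 (SE; adjusted p = 0.12), and without control replicate 1 it was 0.50 ± 0.09 (adjusted p = 0.00308). Psmd13, of the lid subunit Rpn9, had 86.1, 88.3, 99.1 and 85.7 CPM, against 87.5, 73.3, 70.0 and 66.6 CPM in the controls (0.27 ± 0.11 SE, adjusted p = 0.147). Psmd8, of Rpn12, had 109 to 116 CPM in libraries labelled Ccna2-KO and 102 to 132 CPM in the controls (-0.01 ± 0.10 SE). Without control replicate 1, 6 lid genes were called higher (15.1% of all genes), and with the number set term 0 (9.29%). The genes most like Psmd14 over the 8 libraries, among 9080 genes of at least 10 CPM, were Ccdc34, Pole3 and Hmga1, with Pearson's r of log2 CPM of 0.991, 0.989 and 0.989, a description that includes the difference between the groups.

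**Figure D2:**
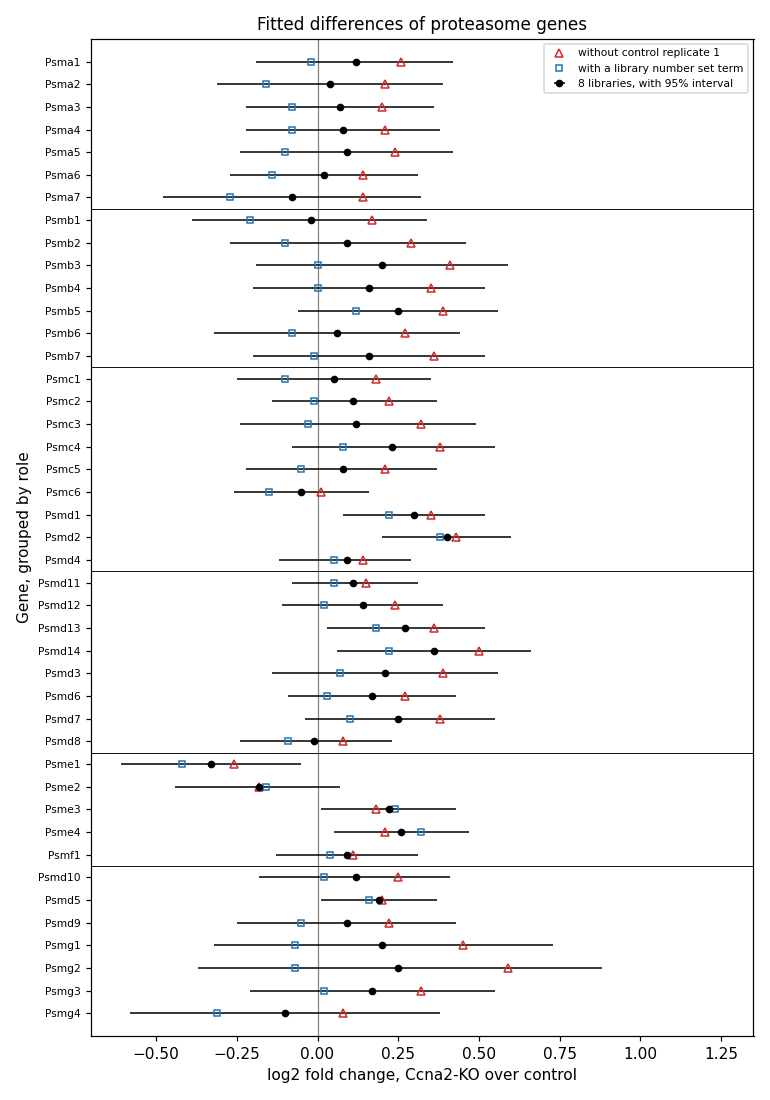
Fitted log2 fold change, Ccna2-KO over control, of 43 tested proteasome genes (Psmb11, Psme2b and Psmc3ip, of low counts, left out), grouped by role. Black points with bars are the fit of 8 libraries with its 95% interval, red triangles the fit without control replicate 1 and blue squares the fit with the number set term. Psmd2 keeps about the same value in all of them (0.40, 0.43 and 0.38), while the alpha ring genes change side of 0.

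Core and regulatory particle were compared by their summed levels. The 16 core genes summed to 1248, 1361, 1361 and 1173 CPM in the libraries labelled Ccna2-KO, against 1618, 1123, 1046 and 1070.4 CPM in the controls. The mean of the libraries labelled Ccna2-KO was 1286 ± 92.1 CPM (SD, n = 4), against 1214 ± 271 CPM in the controls (SD, n = 4) and 1079.9 ± 39.1 CPM in control replicates 2 to 4 (SD, n = 3). The 17 genes of the 19S particle summed to 1565, 1663, 1756 and 1556 CPM in the libraries labelled Ccna2-KO, against 1718, 1353, 1324 and 1365 CPM in the controls. In both sums the libraries labelled Ccna2-KO lay above control replicates 2, 3 and 4, and control replicate 1 lay above all libraries in the core and within the range of the libraries labelled Ccna2-KO in the 19S particle. Control replicate 1 exceeded the mean of the other controls 1.50-fold in the core and 1.28-fold in the 19S particle. The sum of core over 19S was 0.797, 0.818, 0.775 and 0.754 in the libraries labelled Ccna2-KO, against 0.941, 0.830, 0.790 and 0.784 in the controls. The groups overlapped, with control replicate 1 at the top. The median log2 fold change was 0.08 over 15 tested core genes and 0.14 over 17 of the 19S particle. With the number set term these medians were -0.08 and 0.05, and without control replicate 1 they were 0.24 and 0.27.

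**Figure D3:**
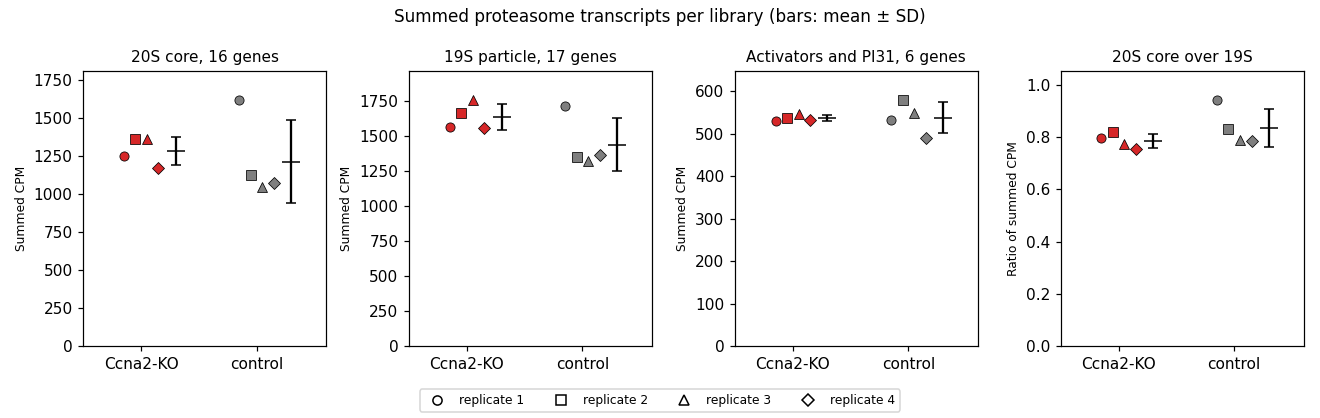
Summed CPM of the 20S core, the 19S particle and the group of activators with PI31, and the ratio of the core sum to the 19S sum, in each library (symbols by replicate, red for libraries labelled Ccna2-KO, grey for controls). Bars are mean ± SD of 4 libraries. Control replicate 1, the grey circle, lies at 1618 CPM in the core, above the other 7 libraries.

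The groups were also set side by side within each number set. In the low set, Ccna2-KO replicate 4 was above the mean of the 3 controls, on the log2 scale, in 12 of 15 tested core genes and 16 of 17 genes of the 19S particle. In the high set, the mean of the other 3 libraries labelled Ccna2-KO was above control replicate 1 in 1 core gene and 5 genes of the 19S particle. The genes of the 19S particle that were higher in both sets were Psmd1, Psmd2, Psmd11, Psmd13 and Psmd14, and Psmc6 was lower in both. Of the core, 0 genes were higher in both sets, and Psma2 and Psma6 were lower in both. Higher in the low set but lower in the high set were 80.0% of tested core genes and 64.7% of 19S genes. Over all genes tested that share was 19.6%. Over all genes tested, 31.7% were higher and 31.4% lower in both sets. Each set holds a single library of 1 group, so no test was made within them.

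Levels per length were compared between subunits in the controls, as mean CPM divided by the length of the matched transcript in kilobases (GENCODE M21 length). The complex holds its core and 19S subunits in equal numbers per ring or cap, but the transcripts were unequal. Psma8, without counts, and Psmb11, of low counts, were left out here, which left 7 genes in each ring. In the alpha ring the values ran from 27.1 (Psma2) to 121 (Psma3) CPM per kb and in the beta ring from 61.1 (Psmb5) to 105 (Psmb4). In the base they ran from 32.2 (Psmd1) to 78.6 (Psmd4), and in the lid from 23.8 (Psmd11) to 74.0 (Psmd8). The length of the 1 transcript used per gene sets these values, and Psma2 was matched to a long form of 2911 bases. The medians per ring or subcomplex in the libraries labelled Ccna2-KO were 87.1, 81.8, 54.4 and 44.5 CPM per kb for the alpha ring, beta ring, base and lid, against 82.5, 76.8, 48.3 and 37.0 CPM per kb in the controls.

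The activators that bind the ends of the core in place of the 19S particle differed in sign. Of 6 genes of activators and PI31, edgeR with genotype alone called 0, where 6.39% of all genes were higher and 5.71% lower. DESeq2 called 2 higher (5.50% of its 27164 genes, the wider base given above). With the number set term, edgeR called 2 higher and 1 lower (9.29% and 8.90% of all genes). The low-count gene Psme2b, described below, was among those called higher in both of these fits. Psme1, of the interferon-inducible PA28 alpha, had 90.6, 91.2, 98.1 and 87.8 CPM in the libraries labelled Ccna2-KO, against 133, 129, 108 and 92.2 CPM in the controls. The ranges touched only through control replicate 4, and the log2 fold change was -0.33 ± 0.13 (SE; adjusted p = 0.129). Psme2, of its partner PA28 beta, had 157, 145, 159 and 162 CPM, against 175, 198, 188 and 146 CPM in the controls (-0.18 ± 0.11 SE, adjusted p = 0.359). Control replicate 4 was the lowest control for both genes, as it was for Psmb8, Psmb9 and Psmb10.

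The nuclear activators had positive values. Psme4, of PA200, which opens the core for histones and other unfolded substrates, had 159, 170.2, 157 and 164 CPM in the libraries labelled Ccna2-KO, against 122, 141, 145 and 137 CPM in the controls. The groups did not overlap (0.26 ± 0.09 SE, adjusted p = 0.108; DESeq2 adjusted p = 0.0331). In edgeR, Psme4 was not called without control replicate 1 (0.21, adjusted p = 0.0599) or with the replicate block (0.26, adjusted p = 0.273). Psme3, of the nuclear PA28 gamma, had 94.8, 101, 101 and 89.8 CPM, against 74.9, 82.2, 84.3 and 90.8 CPM in the controls (0.22 ± 0.09 SE, adjusted p = 0.169). Unlike the core genes, Psme3 and Psme4 were lowest in control replicate 1. With the number set term, Psme4 (0.32 ± 0.09 SE, adjusted p = 0.0354) and Psme2b, described below, were called higher and Psme1 (-0.42 ± 0.12 SE, adjusted p = 0.0409) lower. Psme1 over Psme4 was 0.568, 0.536, 0.625 and 0.535 in the libraries labelled Ccna2-KO, against 1.09, 0.917, 0.747 and 0.675 in the controls. This ratio divides a gene of negative by a gene of positive fold change, so the gap between the groups is no separate result.

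**Figure D4:**
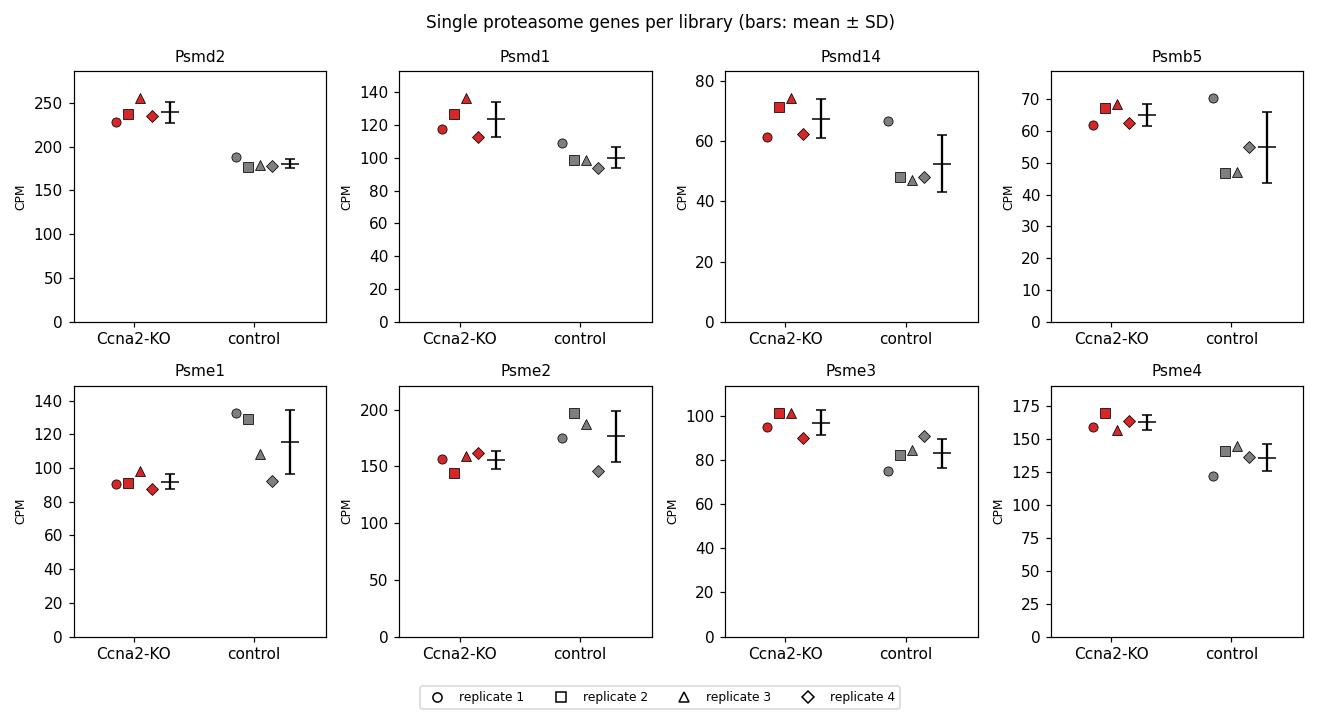
CPM of 8 proteasome genes in each library (symbols by replicate, red for libraries labelled Ccna2-KO, grey for controls). Bars are mean ± SD of 4 libraries. Psmd2, Psmd1 and Psme4 separate the groups, whereas in Psmd14 control replicate 1 (grey circle) lies among the libraries labelled Ccna2-KO and in Psmb5 just above them.

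Psme2b, a near-copy of Psme2, had 31, 22, 28 and 25 counts in the libraries labelled Ccna2-KO, against 0, 11, 15 and 9 in the controls. It passed the filter through the group where it is higher, and reads of a copy cannot be told with certainty from those of Psme2, so its log2 fold change of 1.58 ± 0.58 (SE; adjusted p = 0.116) is uncertain. It was called higher by DESeq2 (adjusted p = 0.0356), by edgeR with the number set term (2.20, adjusted p = 0.0388) and by edgeR without control replicate 1 (1.18, adjusted p = 0.018). Psmf1, of the inhibitor PI31, had 27.6, 29.6, 29.8 and 27.0 CPM, against 28.0, 29.2, 24.2 and 25.8 CPM in the controls (0.09 ± 0.10 SE, adjusted p = 0.625).

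The assembly chaperones hold partly built particles until they close. Psmg1, whose protein pairs with that of Psmg2 to order the alpha ring, had 11.9, 16.8, 16.7 and 11.3 CPM in the libraries labelled Ccna2-KO, against 18.1, 9.74, 9.78 and 11.7 CPM in the controls (0.20 ± 0.23 SE, adjusted p = 0.642). Within each group its libraries differed by more than the group means did. Psmd10, of gankyrin, a chaperone of the base that also binds the retinoblastoma protein and Cdk4, had 19.1, 20.3, 20.8 and 20.2 CPM, against 23.2, 17.9, 16.9 and 16.1 CPM in the controls (0.12 ± 0.13 SE, adjusted p = 0.631). Psmd5, another chaperone of the base, had 49.8 to 52.8 CPM and 42.2 to 47.2 CPM in the controls, with no overlap, and its log2 fold change was 0.19 ± 0.08 (SE; adjusted p = 0.174). Of the 7 chaperone genes 0 were called in the fit of 8 libraries, where 6.39% of all genes were higher and 5.71% lower. Without control replicate 1, edgeR called 1 higher (15.1% of all genes), Psmg2 (0.59, adjusted p = 0.0385). With the number set term it called 0 (9.29%).

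Psmc3ip was low, with 1.92, 2.37, 2.25 and 1.41 CPM in the libraries labelled Ccna2-KO, against 1.67, 0.918, 0.953 and 0.909 CPM in the controls. Only Ccna2-KO replicate 4 fell below control replicate 1, and the log2 fold change was 0.84 ± 0.28 (SE; adjusted p = 0.0894). DESeq2 called it (adjusted p = 0.0382), as did edgeR without control replicate 1 (adjusted p = 0.00948), and with the number set term it was 0.49 (adjusted p = 0.151).

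Most proteasome genes were counted on a single transcript. Where several were listed, the main transcript of Psmd4 held 53.2% to 61.4% of the gene's counts in the libraries labelled Ccna2-KO and 55.9% to 60.8% in the controls. That of Psmd11 held 63.0% to 66.9% and 52.4% to 63.2%, with the lowest share in control replicate 1. Kallisto divides reads between transcripts that share sequence, so these shares are estimates.

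In the fit of 8 libraries, lists of genes that work with the proteasome held 1 called gene in all, outside the interferon, division and marker lists. Of the other 19S subunits, Adrm1 (0.10 ± 0.11 SE) and Shfm1 (0.22 ± 0.15 SE) were not called. Among 12 genes that supply and deliver substrates to the proteasome, 1 rose (6.39% of all genes) and 0 fell (5.71%). Without control replicate 1, 3 were higher and 1 lower (15.1% and 13.4% of all genes), and with the number set term 2 were higher and 1 lower (9.29% and 8.90%). The gene that rose was Vcp, of the segregase p97 that extracts ubiquitinated proteins, with 405, 442, 466 and 405 CPM in the libraries labelled Ccna2-KO, against 371, 291, 301 and 312 CPM in the controls (0.43 ± 0.11 SE, adjusted p = 0.0389). Of 7 genes of maturation and proteasome-bound factors 0 were called, and the deubiquitinase gene Usp14 came nearest (0.35 ± 0.10 SE, adjusted p = 0.055). Of 5 regulators of proteasome gene transcription 0 were called. Nfe2l1, of the factor that raises proteasome genes when the protease is inhibited, had 165, 163, 171 and 194 CPM, against 168, 200.4, 192 and 204 CPM in the controls (-0.14 ± 0.11 SE, adjusted p = 0.462). Of 8 interferon-responsive and antigen presentation genes 0 were called, and all 8 log2 fold changes were below 0. Other fits changed these counts. Without control replicate 1, 3 of these 8 were lower (13.4% of all genes). In that fit 2 of the 7 maturation and bound-factor genes and 1 of Adrm1 and Shfm1 were higher (15.1% of all genes). With the number set term, 1 of the 5 regulators was higher (9.29% of all genes).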

How the data were processed

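RNA-seq libraries of colonic epithelial cells (4 labelled Ccna2-KO, 4 control) were compared. The authors deposited estimated counts per RefSeq transcript. Kallisto, of unstated version, and GRCm38 (mm10) are named per the submitters' processing notes; strandedness is not stated. Of 107193 transcripts, 687 without a symbol (3.19% to 5.51% of the counts) were left out. Counts were summed per symbol and rounded, giving 25960180 to 33028486 per library. No library repeated another.

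The test was edgeR 4.0.16 (R 4.3.3) after filterByExpr and TMM, with robust quasi-likelihood fits and F tests for genotype in the 8 libraries and Benjamini-Hochberg adjustment over 15893 genes, threshold 0.05. It was tested on simulated data. Log2 CPM used a prior count of 2. Intervals are 95%. Alternatives were RLE and plain library size, no filter, a 1 CPM filter, DESeq2 1.42.0, replicate number or number set as a term, and leaving out each library. Promoters came from RefSeq (GRCm38.p6) and transcript lengths from GENCODE M21.

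The genes and lists were chosen with earlier results of these data known. Values per library were given for genes passing the threshold and for a fixed set of subunits of each role, whatever their values; Psma1, Psma3, Psma7, Psmd1, Psmd5, Psmd8, Psmd13, Adrm1, Shfm1 and Usp14 were added after their values were seen.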

Additional observations from a re-analysis of the deposited data

Results flagged for a closer look

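Within groups of 4 libraries, the highest or lowest value of 14 of 92 gene and group combinations stood farther from the rest than Dixon's 95% critical value (gap to the nearest library over the whole range). Chance flags about 1 in 20 independent combinations, but these were not independent. Over the 8 libraries, 31 core and 19S genes had a median pairwise Pearson's r of 0.87, so 1 shifted library can be flagged in many genes. In 13 of the 14 the library was control replicate 1, which lay above the other controls. In the 20S core these were Psma3 (130.5 CPM), Psma7 (114 CPM), Psmb1 (167 CPM), Psmb2 (91.0 CPM), Psmb3 (93.6 CPM), Psmb6 (91.5 CPM) and Psmb7 (115 CPM). In the 19S particle they were Psmc3 (127 CPM), Psmc4 (86.4 CPM), Psmd14 (66.8 CPM), Psmd2 (189 CPM) and Psmd3 (161 CPM). Psmc3ip (1.67 CPM) was the remaining gene. The other gene was Psmd8, of the lid subunit Rpn12, with 116 CPM in Ccna2-KO replicate 3, against 109 to 110.3 CPM in the other libraries labelled Ccna2-KO. The summed levels of control replicate 1 stood apart in the same way, at 1618 CPM for the core, 1718 CPM for the 19S particle and 4010.0 CPM for all proteasome genes. The share of counts without a symbol was also highest in control replicate 1, at 5.51%. Its part in these levels was not tested.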

How the results depend on the processing

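RLE scaling, plain library size, no filter and the 1 CPM filter each gave 1 proteasome gene higher and 0 lower. DESeq2 gave 5 higher and 2902 genes in all, out of 27164 run without filterByExpr, which include genes set aside by its own filter. With the number set term, 3 were higher, 1 was lower and 2890 genes were called in all. Leaving out single libraries gave 0 to 20 proteasome genes higher, 0 lower and 972 to 4624 genes in all, with core medians of 0.01 to 0.24 and 19S medians of 0.10 to 0.27 (log2), the highest without control replicate 1.

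The replicate numbers did not pair the libraries: deviations from the group means of same-numbered libraries correlated at -0.07, -0.35, -0.26 and 0.15, and 1 of 8 libraries correlated best with its own number. With the replicate block, 0 proteasome genes were higher and 984 genes were called in all (Psmd2 0.40, adjusted p = 0.117).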
